A study of Mus musculus with 3 samples.

Results

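The TCR alpha V segments are the genes that encode the variable part of the T cell receptor alpha chain. All genes of the count tables whose symbol starts with Trav were taken, 128 of 32285 features, and each was followed in the follicular T cells of mice with and without Siglec-G on B cells. Usage was measured as the share of cells with a UMI (a unique molecular identifier, 1 counted RNA molecule) of a segment among cells with a UMI of any Trav segment, here called Trav-positive cells. Siglec-G binds sialic acid and dampens B cell signalling. Wild-type (WT) mice and mice with a Siglec-G knockout in B cells (BKO) were immunized with ovalbumin-bearing liposomes, and on day 14 follicular T cells of the spleen were sorted by flow cytometry and profiled by droplet single-cell RNA-seq of transcript 3′ ends. Both groups received the same immunization. The sources used here do not give the strain, age and number of the animals, whether animals were pooled, or the Cre line behind the knockout. The authors divided the cells into T follicular helper cells (Tfh), which support B cells in germinal centres, and T follicular regulatory cells (Tfr), which make Foxp3 and restrain that support.

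Both WT samples hold the same cells, sequenced in 2 runs, so 1 library stands for each genotype. No p-value is therefore given, and the genotype and the animals behind each library cannot be told apart. The version of the counting program also differed with genotype (7.0.1 for both WT runs, 4 for BKO). Its part in the segment shares was not tested. The authors' tables gave 527 (10.4%) of the 5068 WT cells shared by the runs a different class in each, and 13 barcodes were shared by BKO and WT. For WT run 1, WT run 2 and BKO the tables held 3727, 3668 and 6389 Tfh cells and 1416, 1449 and 2044 Tfr cells, with a median of 4413, 7293 and 6243 UMIs per Tfh cell and 5146, 8407 and 7054 per Tfr cell. Foxp3 was at 331 to 356 CPM (UMIs scaled to a common library total) in Tfr and at 0.80, 16.5 and 1.33 CPM in Tfh of WT run 1, WT run 2 and BKO. Cd4 was at 250 to 401 CPM. Of the CD8 T cell markers, Cd8a did not exceed 0.07 CPM and Cd8b1 was at 6.09 to 11.6 CPM. Of the B cell markers reported here, Cd79a did not exceed 1.18 and Cd79b 7.72 CPM, and no myeloid marker reached a mean of 2 CPM. Subclusters differed in size between genotypes: Tfh subcluster 5 held 359 and 363 WT cells and 11 BKO cells, and Tfh subcluster 2 held 257, 269 and 2180.

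A developing T cell builds its alpha chain by joining 1 V segment to 1 J segment, and the joined exon is spliced to the constant region Trac. The alpha chain pairs with a beta chain, which is joined from V, D and J segments, and the V segments of both contribute the loops that contact peptide and MHC. Because the alpha locus can rearrange on both chromosomes, a cell can transcribe more than 1 V segment. A segment in a cell is thus a coarse mark of the receptor, and all descendants of a T cell carry the same joined segments.

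The V segments lie on chromosome 14 of GRCm38 (mm10), between 52427928 and 53977678, and belong to 23 numbered families. All 128 were found in the GENCODE vM21 annotation, 20 of them as pseudogenes. A UMI was seen for 10 of the pseudogenes, so not every UMI counted here stands for a working receptor chain. The central part of the locus is duplicated in this genome. The letters d and n in a symbol mark such copies, of which there are 39 and 34, beside 55 segments with neither letter. The V exons of 42 segments are identical to that of another segment. The V exons of 3 pairs that the results turn on are similar but distinct. They are printed 5′ to 3′ on the plus strand from the GENCODE transcripts, and capitals mark the bases that differ from the other exon of the pair. The first pair is the segment that led BKO Tfr and its nearest copy, which was seen mostly in BKO Tfh:
Trav13-4-dv7, chr14:53757643-53757921: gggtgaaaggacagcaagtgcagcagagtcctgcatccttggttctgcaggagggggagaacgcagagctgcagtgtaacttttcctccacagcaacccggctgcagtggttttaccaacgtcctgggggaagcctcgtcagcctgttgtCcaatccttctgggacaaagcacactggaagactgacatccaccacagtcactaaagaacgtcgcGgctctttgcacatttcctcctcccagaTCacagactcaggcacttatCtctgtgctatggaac
Trav13d-4, chr14:53072996-53073274: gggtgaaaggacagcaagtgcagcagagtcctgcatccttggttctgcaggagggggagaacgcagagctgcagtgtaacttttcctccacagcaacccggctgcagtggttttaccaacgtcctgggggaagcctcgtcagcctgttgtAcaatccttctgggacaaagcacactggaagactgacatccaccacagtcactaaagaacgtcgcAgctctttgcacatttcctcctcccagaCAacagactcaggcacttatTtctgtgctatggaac
The next pair is the segment that accompanied Trav13-4-dv7 and a copy that was lower in BKO Tfh:
Trav9-4, chr14:53676337-53676630: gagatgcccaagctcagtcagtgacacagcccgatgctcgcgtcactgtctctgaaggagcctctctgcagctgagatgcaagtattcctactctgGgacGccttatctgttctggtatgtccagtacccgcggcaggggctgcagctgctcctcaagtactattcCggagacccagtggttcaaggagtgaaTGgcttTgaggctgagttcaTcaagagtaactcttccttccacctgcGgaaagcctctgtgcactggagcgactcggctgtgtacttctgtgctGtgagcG
Trav9n-4, chr14:53294737-53295030: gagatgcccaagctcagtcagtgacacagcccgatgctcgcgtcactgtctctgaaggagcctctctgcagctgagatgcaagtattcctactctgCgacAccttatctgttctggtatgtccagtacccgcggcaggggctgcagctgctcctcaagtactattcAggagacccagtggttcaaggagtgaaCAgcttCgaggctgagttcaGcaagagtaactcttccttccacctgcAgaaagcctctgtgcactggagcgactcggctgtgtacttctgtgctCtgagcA
The last pair is the members of 1 family that occurred together in BKO Tfh cells:
Trav7n-4, chr14:53091584-53091875: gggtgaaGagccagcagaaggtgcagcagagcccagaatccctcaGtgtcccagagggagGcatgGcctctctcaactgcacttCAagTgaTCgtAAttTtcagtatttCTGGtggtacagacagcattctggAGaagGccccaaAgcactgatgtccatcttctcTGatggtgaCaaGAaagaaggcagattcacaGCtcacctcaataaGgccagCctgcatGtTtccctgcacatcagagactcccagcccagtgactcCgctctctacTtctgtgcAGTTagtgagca
Trav7-3, chr14:53443552-53443839: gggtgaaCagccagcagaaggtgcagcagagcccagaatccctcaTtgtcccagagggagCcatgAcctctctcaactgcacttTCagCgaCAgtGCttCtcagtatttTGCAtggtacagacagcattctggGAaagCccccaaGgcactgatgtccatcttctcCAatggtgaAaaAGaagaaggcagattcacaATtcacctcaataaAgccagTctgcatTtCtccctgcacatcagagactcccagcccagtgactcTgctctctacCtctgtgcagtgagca
The exons of Trav13-4-dv7 and Trav13d-4, 279 bases long, were 98.2% identical and differed by the substitutions C151A, G216A, T244C, C245A and C264T, with positions counted from the first base of the exon and the base of Trav13-4-dv7 first. Trav9-4 and Trav9n-4 were 96.6% identical over 294 bases, with 10 substitutions. Trav7n-4 and Trav7-3 were 88.1% identical, with 33 substitutions and exons of 292 and 288 bases. They are not each other's nearest copies. Trav7-3 was 99.3% identical to Trav7d-3, with 2 substitutions, and Trav7d-3 was lower in BKO Tfh. Trav7n-4 was 98.3% identical to Trav7d-4, with 5 substitutions. Errors in assigning reads between such copies were not tested. The printed pairs were chosen after their values were seen.

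Reads from identical copies cannot be assigned to 1 gene, and this set which segments could be seen. Of the 128 segments, 88 had a UMI in some annotated cell (79, 83 and 85 in WT run 1, WT run 2 and BKO) and 40 had none. A window of 60 bases was used to ask whether a transcript holds any stretch found in no other Trav transcript. For 39 segments it held none, and 32 of these had no UMI. The 7 others with no unique window were seen in at most 2 BKO cells per class. Another 8 segments had no UMI although they hold a unique window. Absence of a segment was therefore read only where its sequence is unique. In Tfh, 41 segments had a mean share of at least 1% over the 3 samples and were counted as measured, 46 were seen below that and 41 were not seen. In Tfr the numbers were 43, 34 and 51.

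In Tfh a Trav UMI was found in 30.7% (95% exact interval 29.2 to 32.2) of cells of WT run 1, 43.4% (41.8 to 45.0) of run 2 and 42.1% (40.9 to 43.3) of BKO. In Tfr the shares were 28.2% (25.9 to 30.7), 38.6% (36.1 to 41.2) and 40.0% (37.8 to 42.1). The shallower WT run gave the lowest share in both classes, and BKO lay between the runs in Tfh and above both in Tfr, where its interval overlapped that of WT run 2 before thinning. After each cell was thinned to 2500 UMIs, which left out 194, 56 and 66 Tfh cells and 36, 2 and 9 Tfr cells, the shares were 19.9%, 21.7% and 23.0% in Tfh and 14.8% (13.0 to 16.8), 17.2% (15.3 to 19.3) and 21.6% (19.9 to 23.5) in Tfr, where the interval of BKO was apart from both. Summed over all segments, Trav RNA was at 101, 115 and 120 CPM in Tfh and at 74.6, 82.4 and 122 CPM in Tfr. In Tfr this is a log2 ratio of BKO to the mean of the WT runs of 0.64, short of 1.5 times WT run 2. With TMM scaling (a scaling by the bulk of genes) the ratio was 0.75 and past that limit. These values include Trav13-4-dv7, which 2, 5 and 104 Tfr cells carried (WT run 1, WT run 2, BKO). It held 644 of the 7115 Trav UMIs of annotated BKO cells of both classes. The sum without this segment is not given here, so the rise cannot be read as one of all segments. Barcodes of BKO with 1 to 50 UMIs, which hold free RNA and no cell, carried 148 Trav UMIs over 907649 barcodes, or 0.000163 per barcode against 0.844 per annotated cell. As a part of all UMIs, Trav was at 87.8 CPM in this free RNA and at 121 CPM in annotated BKO cells. Trav13-4-dv7 was at 2.96 CPM in free RNA and 10.9 CPM in cells. The annotated cells are all T cells, so no other cell type gave a second background, and the part of free RNA in the shares was not tested.

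Trav3-3 was the segment seen in most Tfh cells. It was carried by 8.22%, 8.86% and 9.14% of Trav-positive Tfh cells (WT run 1, WT run 2, BKO), and by 7.25%, 6.79% and 10.6% of Tfr cells. By mean share the next segments in Tfh were Trav6-7-dv9 (5.24%, 5.28% and 7.10%), Trav4-4-dv10 (5.68%, 6.03% and 4.46%), Trav16n, Trav5-4, Trav14-1, Trav16, Trav9-4, Trav14n-3 and Trav10. Of these 10, Trav16n was lower and Trav5-4 and Trav9-4 were higher in BKO by the rule below. In Tfr the 10 with the highest mean were Trav3-3, Trav9-4, Trav6-7-dv9, Trav16n, Trav10, Trav13-4-dv7, Trav5-4, Trav4-4-dv10, Trav16 and Trav13-1. Trav13-4-dv7 stood among them only through BKO. The part of a transcript that is unique differed between segments. It was 70.0% of windows for Trav3-3, 46.7% for Trav10 and 98.8% for Trav14-1. The part of this in the ranks was not tested.

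The comparison of BKO with WT asked which segments were used more or less often by follicular T cells when B cells lack Siglec-G. A segment was called when its BKO share was at least 1.5 times beyond both WT runs. In Tfh 7 of 41 measured segments were higher (17.1%) and 12 lower (29.3%), and the 95% intervals of BKO and both runs were apart for 6 and 7 of them. In Tfr 5 of 43 were higher (11.6%) and 16 lower (37.2%), with intervals apart for 2 and 1. The intervals take cells as independent, which descendants of 1 T cell are not, so they can be too narrow. As the runs share their cells, being apart from both is not 2 separate results. The median log2 ratio over the measured segments was -0.08 in Tfh and -0.37 in Tfr. By the same fold WT run 1 exceeded WT run 2 for 0 segments and fell short for 3 in Tfh, and for 1 and 6 in Tfr, although both runs read the same cells. Segments that pass the minimum through 1 genotype alone had to differ: the WT mean was under 1% for 3 of the 7 and 2 of the 5 higher ones, and BKO was under 1% for 7 of the 12 and 10 of the 16 lower ones. The lower calls in Tfr rest on 4 to 19 carrying cells in a WT run and 1 to 15 in BKO. Against WT run 1 alone, which shares the batch label of BKO, the higher segments numbered 9 in each class and the lower 13 in Tfh and 18 in Tfr.

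For scale, the same fold was applied to CPM of every gene with a mean of at least 2 CPM. In Tfh, 1.03% of 11412 genes were higher and 6.13% lower, and in Tfr 1.9% of 11329 were higher and 4.88% lower. Of the Trav segments that reached that level, 6 of 20 in Tfh and 4 of 12 in Tfr were higher, and 4 and 1 lower. The median log2 ratio of these segments was 0.07 in Tfh and 0.47 in Tfr, beside -0.11 and -0.10 over all genes tested.

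**Figure D1:**
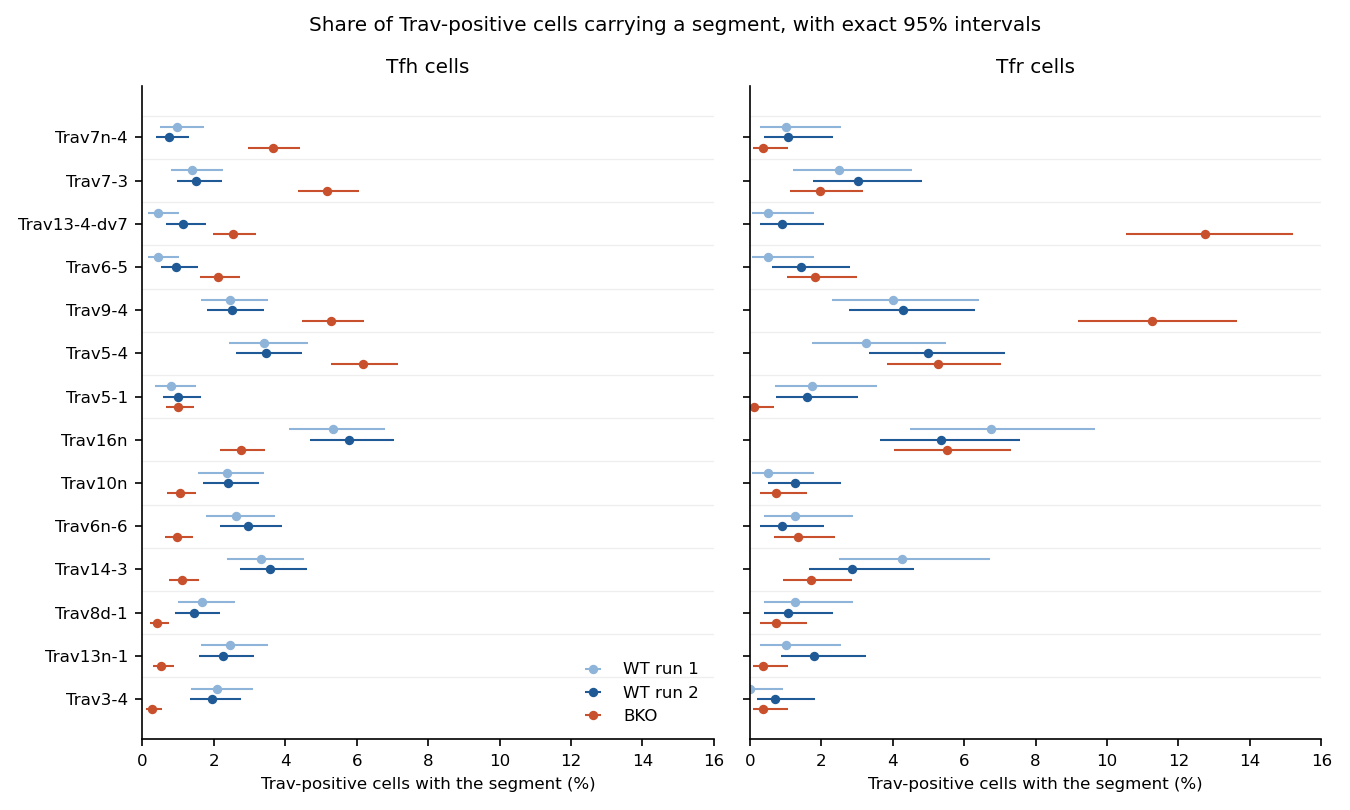
Share of Trav-positive cells (x axis, percent) that carry each of 14 segments in Tfh (left) and Tfr (right). Points are the 3 samples and bars exact 95% intervals for counting error. The segments shown are those called in either class with intervals apart. BKO Tfr stand at 12.7% for Trav13-4-dv7 and 11.3% for Trav9-4, while Trav7n-4 and Trav7-3 are at 3.64% and 5.17% in BKO Tfh and at 0.37% and 1.96% in BKO Tfr.

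Trav13-4-dv7 showed the widest difference. It was carried by 2 of 400, 5 of 560 and 104 of 817 Trav-positive Tfr cells, in the order WT run 1, WT run 2, BKO. These are 0.50% (0.061 to 1.79), 0.89% (0.29 to 2.07) and 12.7% (10.5 to 15.2). The BKO share was 18.3 times the mean of the WT runs, and it led all segments in BKO Tfr. Carrying Tfr cells held on average 4.10 UMIs of it in BKO and 1.00 and 1.60 in the WT runs. The WT values rest on 2 and 5 cells. In Tfh it was carried by 0.44% (5 cells), 1.13% (18 cells) and 2.53% (68 cells) of Trav-positive cells, 3.22 times the WT mean. Its copy Trav13d-4 was seen mostly in Tfh: 55 BKO Tfh cells (2.04%) and 4 BKO Tfr cells (0.49%) carried it, beside 4 and 3 Tfh cells and 1 and 1 Tfr cells of the WT runs. That copy was not among the measured segments, since its WT shares of 0.35% and 0.19% bring the mean in Tfh below 1%.

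Trav9-4 was carried by 16 of 400, 24 of 560 (4.29%) and 92 of 817 (11.3%) Trav-positive Tfr cells, 2.72 times the WT mean. In Tfh it was carried by 2.45%, 2.51% and 5.28%, 2.13 times the WT mean. It was also the 1 segment of 44 (2.27%) that was at least 1.5 times higher in Tfr than in Tfh in each of the 3 samples, while 0 of 44 (0.0%) were lower in each. The log2 ratios of Tfr to Tfh were 0.71, 0.77 and 1.09. The WT runs share their cells, so their ratios are not separate results. Of the 92 BKO Tfr carriers, 61 also carried Trav13-4-dv7. In single samples, 7, 8 and 9 segments were higher in Tfr and 9, 9 and 13 lower. Without WT run 1, 3 segments were higher in Tfr and 2 lower, and without WT run 2, 1 and 2.

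Among the other segments higher in BKO Tfr, Trav19 was carried by 1.00%, 1.07% and 3.30% of Trav-positive cells, Trav12-2 by 2.25%, 1.61% and 3.92%, and Trav6-3 by 0.75%, 1.07% and 1.84%. Their intervals overlapped those of a WT run, and these 3 calls were lost when a segment had to have 2 UMIs in a cell. Trav5-1 was carried by 7, 9 and 1 Tfr cells, 1.75%, 1.61% and 0.12%, and was the only segment lower in Tfr with intervals apart. Thinning to 2500 UMIs ended that call. The rest of the segments lower in BKO Tfr were Trav13d-1, Trav13n-1, Trav13-2, Trav2, Trav7-1, Trav21-dv12, Trav7d-4, Trav14-3, Trav8-1, Trav13n-4, Trav7-4, Trav7-5, Trav14n-3, Trav12-3 and Trav4-3, at log2 ratios from -2.62 to -0.79. By family, Trav13 (9.75%, 11.2% and 19.5%), Trav9 (8.25%, 9.64% and 16%) and Trav19 were higher and Trav7 (15.5%, 15.4% and 8.45%), Trav2 and Trav21 lower among 16 measured families in Tfr.

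Among the measured segments, the highest ratios in Tfh belonged to Trav7n-4 and Trav7-3. Below the minimum, Trav13d-4 had a ratio of 7.60, Trav6-2 (2, 3 and 29 cells; 0.17%, 0.19% and 1.08%) of 5.93 and Trav7d-2 of 3.74. The last 2 were named after their values were seen. Trav7n-4 was carried by 11, 12 and 98 cells, 0.96% (0.48 to 1.71), 0.75% (0.39 to 1.31) and 3.64% (2.97 to 4.42) of Trav-positive Tfh cells, 4.25 times the WT mean. Trav7-3 was carried by 16, 24 and 139 cells, 1.40%, 1.51% and 5.17%, 3.55 times the WT mean. Neither was high in BKO Tfr, where 3 and 16 cells carried them (0.37% and 1.96%), below both WT runs. The other 5 higher segments in Tfh were Trav13-4-dv7, Trav6-5 (0.44%, 0.94% and 2.12%), Trav9-4, Trav3-1 (1.14%, 1.07% and 2.01%) and Trav5-4 (3.41%, 3.45% and 6.17%). For Trav3-1 the intervals were not apart.

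Segments lower in BKO Tfh included members of several families. Trav3-4 was carried by 24, 31 and 7 cells, 2.10% (1.35 to 3.11), 1.95% (1.33 to 2.75) and 0.26% (0.10 to 0.54), 7.78 times lower in BKO. Trav13n-1 was at 2.45%, 2.26% and 0.52%, Trav8d-1 at 1.66%, 1.44% and 0.41%, and Trav14-3 at 3.32%, 3.58% and 1.11%. Trav6n-6 was at 2.62%, 2.95% and 0.97%, Trav10n at 2.36%, 2.39% and 1.04%, and Trav16n at 5.33%, 5.78% and 2.75%. These 7 had intervals apart. Trav8-2 (annotated as a pseudogene), Trav7-6, Trav9n-4, Trav13-2 and Trav7d-3 were lower by 1.74 to 2.34 times with overlapping intervals. By family, only Trav5 was higher (4.20%, 4.40% and 7.25%) and only Trav8 lower (5.24%, 5.34% and 3.16%) among 15 measured families in Tfh.

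Across subclusters, which the authors built from the genes of the same cells, the BKO shares of Trav13-4-dv7 and Trav9-4 were uneven. In Tfr subcluster 1 Trav13-4-dv7 was carried by 66 of 341 Trav-positive BKO cells (19.4%, 15.3 to 24.0), against 0 of 68 (which allows up to 4.41%) and 1 of 103 (0.97%) cells of the WT runs. In Tfr subclusters 0, 2 and 3 the BKO shares were 8 of 123, 4.96% and 6.83%, above both WT runs in each. Tfr subcluster 4 held too few Trav-positive cells for the rule of 50, and 10 of its 39 BKO cells carried the segment. In Tfh the segment was carried by 36 of 357 cells (10.1%, 7.16 to 13.7) of BKO subcluster 1, against 0 of 243 and 2 of 339 in the WT runs. Trav9-4 was likewise at 17.0% in BKO Tfr subcluster 1 (2.94% and 2.91% in the WT runs) and at 12.6% in BKO Tfh subcluster 1 (4.53% and 3.54%). In BKO Tfr subcluster 0 Trav9-4 led with 11 of 123 cells (8.94%), above both WT runs (3.40% and 2.83%), and in subcluster 4 it was carried by 8 of 39. In Tfr subclusters 2 and 3 Trav9-4 was at 3.55% and 4.97%, in each case below 1 of the WT runs. Of 142 BKO Tfh carriers of Trav9-4, 45 were in subcluster 1.

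**Figure D2:**
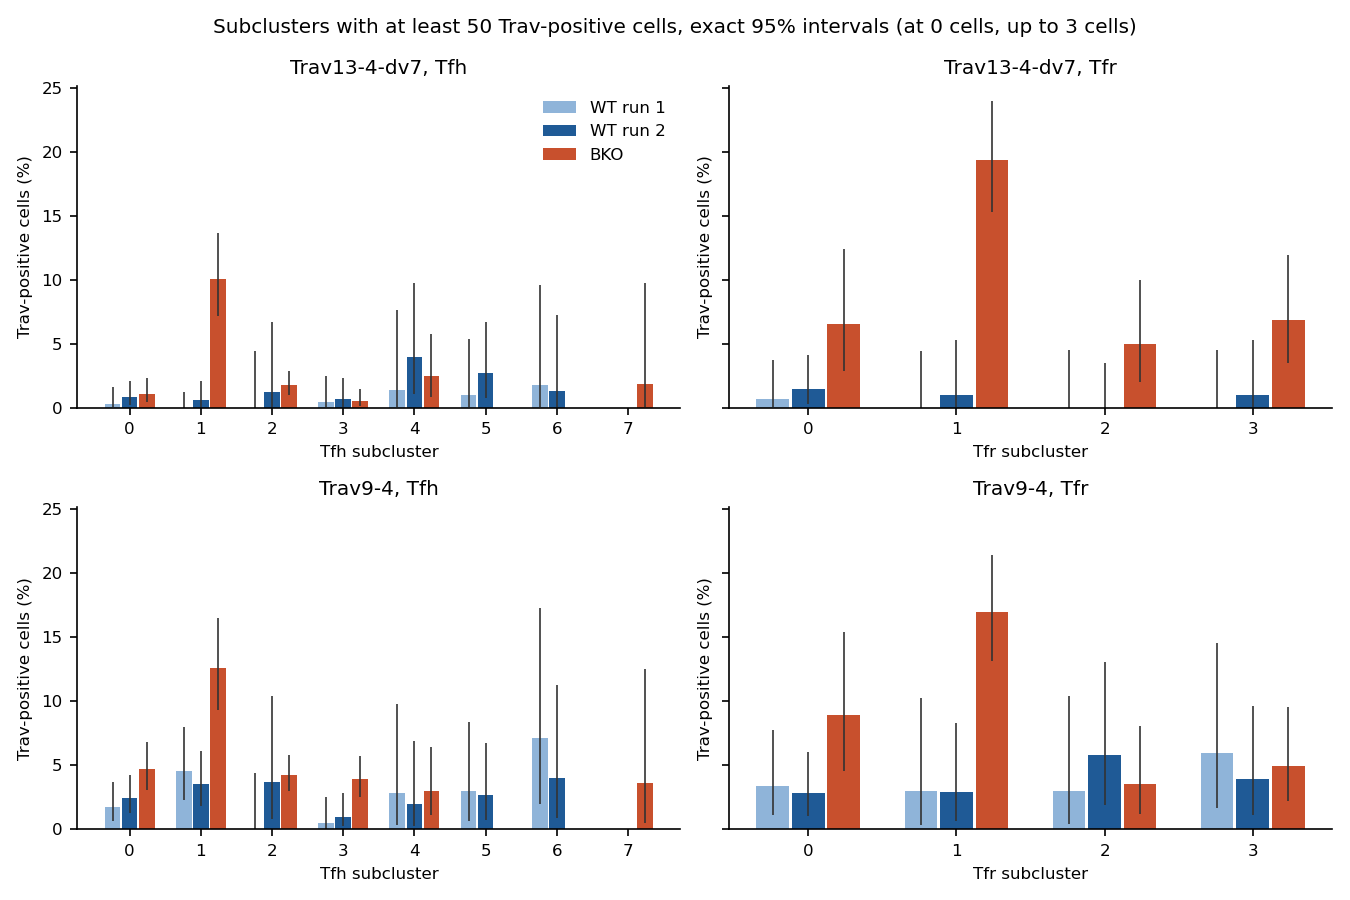
Share of Trav-positive cells (y axis, percent) carrying Trav13-4-dv7 (top) and Trav9-4 (bottom) by Tfh and Tfr subcluster (x axis) with at least 50 Trav-positive cells in the sample. Bars are samples and lines exact 95% intervals, or the limit of 3 cells where none was seen. Both segments are highest in BKO subcluster 1 of each class, at 10.1% and 12.6% in Tfh and 19.4% and 17.0% in Tfr.

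Trav7n-4 and Trav7-3 were spread in another way. In BKO Tfh subcluster 3 the segments were carried by 6.17% and 6.82% of Trav-positive cells, and in subcluster 1 by 0.28% and 1.68%. Of 98 BKO Tfh cells with Trav7n-4, 38 were in subcluster 3, 27 in subcluster 2 and 1 in subcluster 1. WT had a skewed segment of its own in Tfh subcluster 3: Trav6n-6 was carried by 8.07% and 7.54% of Trav-positive cells of the WT runs and by 1.30% of BKO. In WT Tfh subcluster 5 Trav4-4-dv10 led with 13.7% (7.71 to 22.0) and 15.4% (10.0 to 22.3). Elsewhere Trav3-3, Trav16n, Trav14-1, Trav14-3, Trav9n-4, Trav6-7-dv9 or, in Tfh subcluster 6, Trav4-4-dv10 led or tied for the lead in the WT subclusters with enough cells, at 6.12% to 14.8%. Trav7-5 (5 cells, run 1) and Trav10 (8 cells, run 2) also tied in Tfr subcluster 3. In BKO the leaders, with a tie of Trav14n-3 and Trav3-3 at 45 cells in Tfh subcluster 3, were Trav3-3, Trav9-4, Trav14n-3, Trav14-1, Trav13-4-dv7 and Trav6-7-dv9. Of the segments called in Tfh, Trav9-4 and Trav5-4 were above both WT runs in 5 of 5 subclusters with enough cells in every sample, and Trav7d-3, Trav13n-1, Trav16n, Trav8-2, Trav14-3 and Trav3-4 were below both in 5 of 5. In Tfr, Trav13-4-dv7 and Trav19 were above both in 4 of 4 and Trav13-2 below both in 4 of 4. Other called segments were less even. Trav7n-4 in Tfh was above both in 3 and below both in 1 of 5, and Trav3-1 above both in 2 of 5. Trav9-4 in Tfr was above both in 2 of 4. The segments were called on the pooled shares of the same cells. Such counts had to lean towards the call and are a description.

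Many cells carried more than 1 segment, a share that was higher in the deeper WT run: 13.1%, 21.0% and 21.1% of Trav-positive Tfh cells (WT run 1, WT run 2, BKO) and 12.2%, 19.3% and 22.6% of Tfr cells. Cells with more than 1 segment had a higher median of UMIs than those with 1 segment in every sample and class. In Tfh the medians were 5134 against 4732, 8473 against 7503 and 7071 against 6451 (WT run 1, WT run 2, BKO). In Tfr they were 8238 against 5463, 10856 against 8934 and 7767 against 7387. Doublets were not called, and their part in cells with several segments was not tested. Of cells with exactly 2 segments, 22.6% to 28.0% carried segments at most 3 steps apart in the order on the locus. Trav3-3 and Trav9-4, which are neighbours, were together in 14 WT run 2 and 32 BKO Tfh cells.

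Some combinations joined segments more than 3 steps apart. In cells with exactly 2 segments the median distance was 8 steps in BKO Tfr and 15 in WT run 2 Tfr. In BKO Tfr 61 cells carried both Trav9-4 and Trav13-4-dv7, which lie 8 steps apart, or 66.3% of the cells with the first and 58.7% of the cells with the second. Of the Trav-positive cells without Trav9-4, 5.93% carried Trav13-4-dv7. In BKO Tfh 26 cells carried both, 22 of them in subcluster 1, whereas 0 cells of either WT run did in Tfh or Tfr. The limit that a count of 0 allows is 0.188% of Trav-positive Tfh cells and 0.536% of Tfr cells in WT run 2. The BKO Tfr cells with both had a median of 7336 UMIs, and on average 2.43 UMIs of Trav9-4 and 4.57 of Trav13-4-dv7. Leaving these cells out takes 61 of 92 carriers of Trav9-4 from BKO Tfr and 0 from WT, so the ratios had to fall. The log2 ratio in Tfr was then -0.01 for Trav9-4 and 3.03 for Trav13-4-dv7. In Tfh without them the ratio of Trav9-4 was 0.81 and that of Trav13-4-dv7 1.01, which no longer passed the rule.

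Trav7n-4 and Trav7-3, which lie 37 steps apart, were together in 51 BKO Tfh cells, 52.0% of the carriers of the first and 36.7% of the second, in 1 BKO Tfr cell and in no WT cell. Their exons, printed above, differ by 33 substitutions. In WT a distant pair was Trav6n-6 with Trav3-3 at 56 steps, in 4 and 16 Tfh cells of the runs and 0 BKO cells. Of the 16 cells in WT run 2, 12 were in subcluster 3. These pairs were picked because their counts were high, so their counts are a description.

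The choice of members used no Trbv gene, but the beta segments named here were picked after values were seen. The percentages of carriers are therefore a description, and carriers of 2 alpha segments count for both. Cells with a Trbv UMI were the base. In BKO Tfr this was 20 of 104 carriers of Trav13-4-dv7 and 19 of 92 of Trav9-4, so the beta segment of most carriers was not seen, whereas 306 of the rest of the 817 Trav-positive cells had a Trbv UMI. In BKO Tfr Trbv4 was present in 11 of 20 carriers of Trav13-4-dv7 (55.0%, 31.5 to 76.9) and in 8 of 306 other Trav-positive cells (2.61%, 1.14 to 5.09). For Trav9-4 it was present in 11 of 19 carriers (57.9%, 33.5 to 79.7). In Tfh of BKO 5 of 22 carriers of Trav13-4-dv7 and 9 of 57 of Trav9-4 had Trbv4, against 1.52% and 1.25% of other cells. In WT run 2 it was seen in 0 of 3 Tfr and 1 of 11 Tfh carriers of Trav13-4-dv7 (9.09%, against 2.10% of other Tfh cells), and in 0 of 11 Tfr and 0 of 22 Tfh carriers of Trav9-4. Of the BKO Tfr cells with both alpha segments, 7 of 9 with a Trbv UMI had Trbv4.

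The Trav7 pair went with another beta segment. Trbv19 was present in 39 of 50 BKO Tfh carriers of Trav7n-4 (78.0%, 64.0 to 88.5), in 35 of 71 carriers of Trav7-3 (49.3%, 37.2 to 61.4) and in 8.95% and 9.41% of the other cells. In WT run 2 it was in 0 of 9 and 0 of 10 carriers. Trav13d-4, the copy of Trav13-4-dv7 printed above, was seen with Trbv19 in 21 of 23 BKO Tfh cells (91.3%, 72.0 to 98.9) and with Traj18 in 12 of 16 cells with a Traj UMI, against 72 of 265 other cells (27.2%). In BKO, Tfh carriers of the copies that differ by 5 bases thus had different leading beta segments, Trbv4 in 5 of 22 and Trbv19 in 21 of 23. Trav7n-4 was seen with Traj27 in 14 of 21 BKO Tfh cells, against 65 of 260 other cells.

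**Figure D3:**
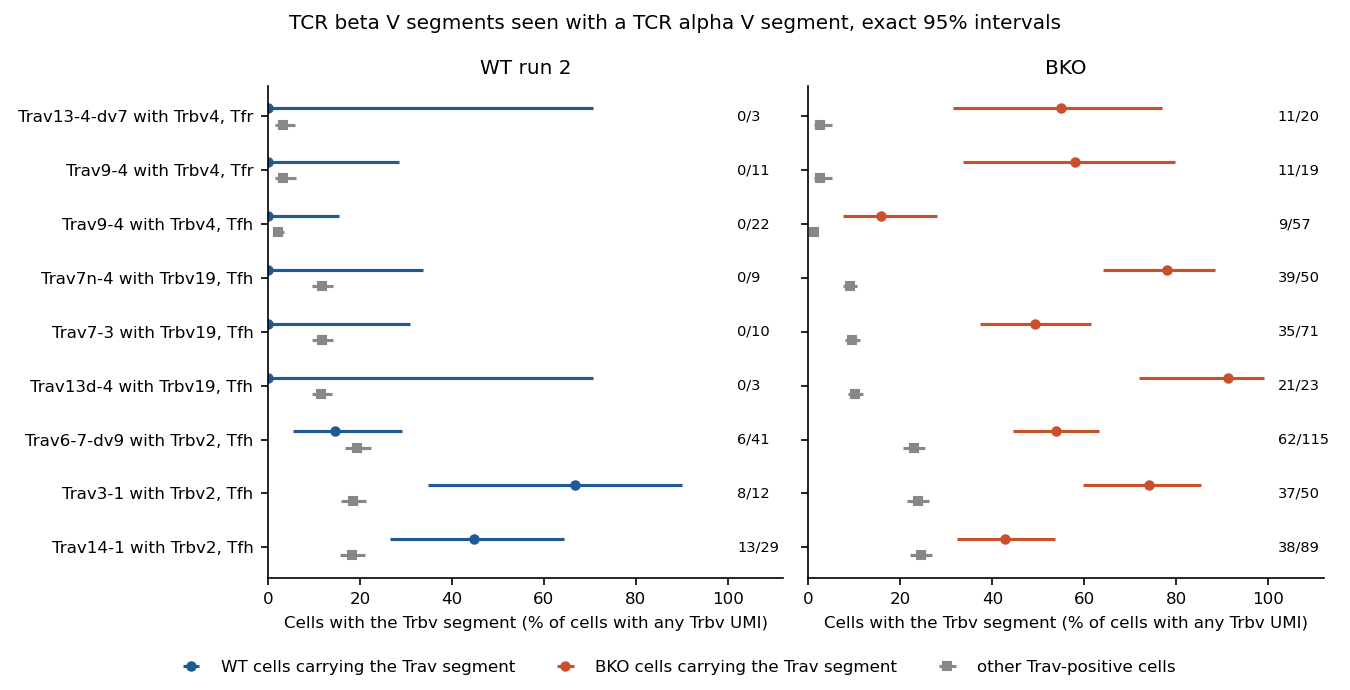
Percent of cells with a given Trbv segment among cells with any Trbv UMI (x axis), for carriers of a Trav segment (circles) and for the other Trav-positive cells (squares), in WT run 2 (left) and BKO (right). Bars are exact 95% intervals, and the numbers at the right are carriers with the Trbv segment over carriers with any. Trbv4 and Trbv19 stand out in BKO carriers, while Trav3-1 and Trav14-1 go with Trbv2 in both genotypes.

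Other combinations were found by taking the most frequent beta segment of each segment listed. Trbv2 was in 37 of 50 BKO (74.0%) and 8 of 12 WT run 2 (66.7%) Tfh carriers of Trav3-1, against 23.7% and 18.5% of other cells, so this combination was present in both genotypes. Trav14-1 was with Trbv2 in 42.7% of BKO and 44.8% of WT run 2 carriers. Trav6-7-dv9 was with Trbv2 in 62 of 115 BKO Tfh carriers (53.9%) and in 6 of 41 of WT run 2 (14.6%). In BKO Tfh Trav4-4-dv10 went with Trbv26 (29 of 63), Trav14n-3 with Trbv13-3 (24 of 50), Trav16 with Trbv3 (22 of 45) and Trav4-3 and Trav12-2 with Trbv23 (15 of 35 and 13 of 35). In BKO Tfr Trav19 went with Trbv20 in 6 of 10 carriers. In WT run 2 Tfh Trav13n-1 went with Trbv19 (11 of 19) and with Traj9 (11 of 13, against 1 of 153 other cells), Trav9n-4 with Trbv19 (16 of 32) and Trav16n with Trbv13-2 (16 of 49). Since the top partner was picked from many, the percentages of carriers are a description.

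The spread of usage differed between the libraries. The effective number of segments, the inverse of the chance that 2 segment calls are of the same segment, was 38.3, 40.1 and 34.5 in Tfh and 40.4, 40.9 and 24.8 in Tfr of WT run 1, WT run 2 and BKO. BKO Tfr had the lowest value. The 10 most frequent segments made up 53.7% of calls in BKO Tfr and 40.4% and 39.5% in the WT runs, and 44.3% in BKO Tfh against 40.3% and 37.7%. In 400 Trav-positive cells, 65.0 segments were expected in BKO Tfr and 66.0 and 71.0 in the WT runs, so the number of segments differed less than their evenness. Across the measured segments the shares of the WT runs had a Pearson r of 0.974 in Tfh (41 segments, Spearman 0.955) and 0.881 in Tfr (43 segments, 0.856). Between a WT run and BKO r was 0.682 and 0.651 in Tfh and 0.482 and 0.544 in Tfr. The WT runs share their cells, and segments of 1 library share its depth.

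Per cell, 88.0% of 1721 segment calls of WT run 1 were seen in run 2, and 57.1% of 2653 calls of run 2 in run 1. Of 1365 cells with a Trav UMI in both runs, 24 (1.76%) had no segment in common. These values cover repeated sequencing only, since both runs share the captured cells, free RNA and doublets, and they hold no difference between animals.

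Position on the locus, which the choice of members did not use, went with the share of carrying cells in all samples. Of the 128 segments in order, the 43 nearest the J segments were carried by 66.8%, 68.6% and 67.2% of Trav-positive Tfh cells and 65.8%, 70.0% and 75.4% of Tfr cells. The 42 farthest were carried by 10.2%, 11.8% and 11.6% of Tfh cells and 14.8%, 13.9% and 7.22% of Tfr cells. Use was not highest at the very end, where Trav21-dv12 reached at most 3.25% and Trav22 and Trav23 at most 0.38% in a sample and class. Only 17 to 23 of the farthest 42 were seen per sample and class, against 33 to 38 of the nearest 43. Copies without unique sequence add to that gap by construction. Of the segments with no unique window, only Trav6-6 and Trav11 are among the 43 nearest. The shares by position therefore mix use with what could be counted, and the part of each was not tested. Copies marked d were carried by 8.32% and copies marked n by 13.6% of BKO Tfr cells, against 12.1% and 17.9% in WT run 2. In cells with 1 V and 1 J segment, V segments of the 43 nearest went with a median J number of 27 in Tfh of WT run 2 (67 cells) and BKO (118 cells), and the others with 17 to 18. In BKO Tfr the 42 farthest also had a median of 27 (7 cells), as had the middle 43 in WT run 1 Tfr (3 cells). In BKO Tfh, Traj18 was in 191 and Traj27 in 165 of 615 cells with a Traj UMI, and the medians fell on these segments. J numbers fall towards Trac, so in Tfh of WT run 2 and BKO the 43 nearest went with J segments farther from Trac.

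**Figure D4:**
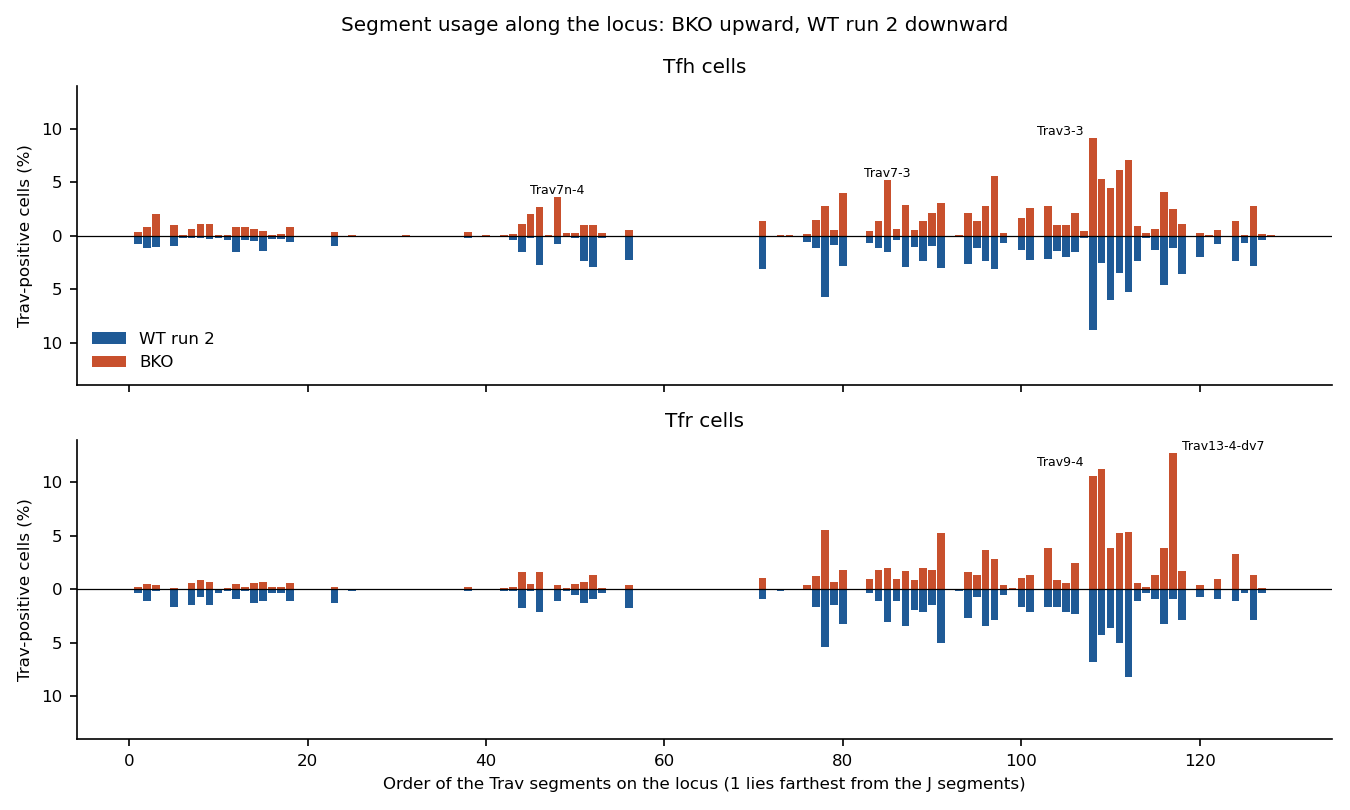
Share of Trav-positive cells (y axis, percent) for the 128 segments in their order on the locus (x axis), in Tfh (top) and Tfr (bottom). BKO is drawn upward and WT run 2 downward. The gaps hold copies without a UMI. The segments seen most often lie in the part of the locus nearest the J cluster but not at its very end. Few segments there lack unique sequence. Trav13-4-dv7 at 12.7% and Trav9-4 at 11.3% stand out in BKO Tfr.

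Segments of T cells with invariant receptors were seen in few cells. Trav1, used by MAIT cells, which recognise riboflavin metabolites, was carried by 9, 13 and 9 Tfh cells (0.79%, 0.82% and 0.33%) and 1, 2 and 2 Tfr cells. Trav11, used with Traj18 by invariant NKT cells, which recognise lipids, was seen in at most 1 cell per sample and class, and Trav11d in 1 cell in all. Their V exons are identical and hold no unique window, so this low count says nothing on whether such cells were present. Zbtb16, the transcription factor of NKT cells, was at 3.63, 3.31 and 0.78 CPM in Tfh, lower in BKO by the rule, and at most 0.15 CPM in Tfr. Of the 6 measured members of the invariant NKT list in Tfh, 0 were higher and 1 lower, and of 5 in Tfr 0 and 0, beside 6.13% of all genes lower in Tfh and 4.88% in Tfr; so few members cannot be set against those shares. Trdc, the delta chain constant region, was at 6.89, 6.99 and 4.53 CPM in Tfh, also lower in BKO, and the only measured gene of the gamma-delta list. It was at 1.93, 3.32 and 4.71 CPM in Tfr and not called there.

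The other parts of the receptor were measured as CPM. Of the 7 measured genes of the TCR complex list (Trac, Trbc1, Trbc2, Cd3d, Cd3e, Cd3g and Cd247), none was called in Tfh or in Tfr, at a median log2 ratio of 0.17 and 0.30, beside -0.11 and -0.10 over all genes tested. Over all genes, 1.03% in Tfh and 1.9% in Tfr were higher, and 6.13% and 4.88% lower, so a count of 0 among 7 does not set the list apart. Trac, the alpha constant region, was at 810, 893 and 1098 CPM in Tfh and 702, 755 and 1017 CPM in Tfr, a log2 ratio of 0.37 and 0.48. Cd3d, a signalling chain of the receptor, was at 1100, 1025 and 1329 CPM in Tfh and 1176, 1087 and 1508 CPM in Tfr. Cd247, the zeta chain, was at 825, 817 and 612 CPM in Tfh. Of 5 Tfh markers (Cxcr5, Pdcd1, Bcl6, Icos and Il21) and 5 T cell markers, 0 were called in either class. Of 4 Tfr markers, Il2ra was lower in BKO Tfh (21.2 CPM in WT run 1 and 8.63 in BKO) and Ctla4, an inhibitory receptor, higher in BKO Tfr (357, 355 and 615 CPM). Cd79b was lower in BKO Tfh (2.83, 2.61 and 1.62 CPM). The sources used here do not say whether reads in introns were counted, and the WT and BKO counts came from different versions of the counting program, so a part of such shifts by the counting was not tested. Fewer transcribing cells and less RNA per cell cannot be told apart in summed counts.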

How the data were processed

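In all, 3 samples were measured with droplet single-cell RNA-seq of transcript 3′ ends. Unnormalised UMI counts by gene and barcode were deposited by the authors, made with Cell Ranger on mm10 per the submitters' processing notes, in version 7.0.1 for WT and 4 for BKO per the file headers. The first counts intronic reads by default and the second does not (the sources used here do not name the setting). The authors' tables, which give each cell's UMI counts and subcluster number, were joined to the matrices by barcode, and the WT samples were found to hold the same cells. For WT run 2 no UMI total equalled the table's and the median ratio of matrix to table was 1.52, against 78.2% equal totals for WT run 1 and 74.0% for BKO, so its class and subcluster labels come from counts other than those analysed.

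From the counts, cells with a UMI of each Trav segment were counted per sample, class and subcluster. Shares carry exact Clopper-Pearson intervals at 95%, which cover counting error of independent cells only, and 0 cells allows up to 3. A segment was measured at a mean share of at least 1% and called when BKO was at least 1.5 times beyond both WT runs, with 0 replaced by 3 counts in ratios. CPM are UMI counts scaled to the library total, and genes needed a mean of 2 CPM. With 1 library per genotype no test was designed or run. Sequences and positions came from GENCODE vM21. TMM factors came from edgeR 4.0.16 in R 4.3.3, and all else was computed in Python 3.11.15 with scipy 1.17.1. The rule and the thinning were tested on simulated data.

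Segments were named by rule: the 10 of highest mean share per class, called segments, leaders of subclusters with at least 50 Trav-positive cells, Trav1, Trav11 and Trav11d, and genes of fixed lists. The members, lists and rules were chosen with earlier results of these data known. The pairs, beta and J partners, printed sequences, the window of 60 bases and 4 alternatives were chosen after values were seen. No doublet caller was run, and the sources used here do not say how the authors treated doublets. Alternatives changed the UMIs needed, the depth, the denominator, the class, the WT run, the minimum and the fold. A gene of the B cell list is not reported here.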

Additional observations from a re-analysis of the deposited data

Results flagged for a closer look

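For 5 measured segments BKO lay beyond both WT runs in opposite directions in Tfh and Tfr, with a call in at least 1 class. The difference between the classes was not tested. Trav7-3 had a log2 ratio of BKO to WT of 1.83 in Tfh and -0.50 in Tfr, a difference of 2.33. Trav14n-3 had 0.50 and -0.87, a difference of 1.37, and Trav4-3 had 0.26 and -0.79, a difference of 1.05. Trav6n-6 went the other way with -1.53 and 0.33, a difference of -1.86, as did Trav19 with -0.68 and 1.67, a difference of -2.35. In Tfr these values rest on few cells: 11 BKO cells carried Trav6n-6, 16 Trav7-3 and 27 Trav19.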

How the results depend on the processing

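The calls of Trav13-4-dv7 in Tfr, of Trav7n-4, Trav7-3, Trav9-4 and Trav3-4 in Tfh kept their direction and side of the threshold under all 13 alternatives per segment, with log2 ratios of 2.84 to 5.46, 0.90 to 2.78, 1.27 to 2.18, 0.81 to 1.36 and -4.22 to -2.76. Among the values of single segments under alternatives, 426 kept both, 87 no longer passed the threshold and 7 reversed. Trav9-4 in Tfr reversed to -0.30 in cells with exactly 1 segment and to -0.015 without the cells that also carried Trav13-4-dv7. With 2 UMIs required, Trav13-2 in Tfh reversed to 0.33, and Trav6-3 and Trav19 in Tfr to -0.84 and -0.63. After thinning, Trav2 and Trav8-1 in Tfr reversed to 0.028 and 0.057. The causes of these were not tested, apart from the removal of cells by construction.

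The numbers of called segments moved most in Tfr. Higher segments numbered 2 with 2 UMIs required, 3 after thinning, 8 over all annotated cells, 2 by share of UMIs, 8 at a minimum of 0.5%, 3 at a fold of 2 and 3 by family, and lower ones 10 in cells with 1 segment, 9 over all annotated cells, 8 at a fold of 2 and 3 by family. In Tfh higher ones numbered 11 at a minimum of 0.5% and 1 by family, and lower ones 7 over all annotated cells, 7 at a fold of 2 and 1 by family. Without 1 WT run, the higher segments numbered 8 to 9 and the lower 13 to 14 in Tfh, and 7 to 9 and 18 to 19 in Tfr, 1 to 3 were higher and 2 lower in Tfr than Tfh, and in cells with 1 segment 2 were lower. The log2 ratio of cells with any Trav ranged from -0.04 to 0.46 in Tfh and 0.05 to 0.50 in Tfr without 1 WT run, and that of summed CPM from 0.07 to 0.25 and 0.57 to 0.71, the last past the threshold, as was 0.75 with TMM scaling. With no minimum of CPM, 739 genes in Tfh and 1067 in Tfr were higher, and 3753 and 3050 were lower. The rules on pairs, families, subcluster means and either-run calls were chosen after seeing the data. No paired analysis was possible because the groups share only 1 replicate number and no test was run. With 1 library per genotype the intervals hold no difference between animals, and 1% of Trav-positive Tfr cells of WT run 1 is 4 cells.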
